A study of Saccharomyces cerevisiae with 18 samples.

Results

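The translation factors of budding yeast are the proteins that start, extend and end protein synthesis on the cytosolic ribosome. The set described here holds 37 genes, fixed by name: 24 of initiation, 11 of elongation and 2 of release. Of these, 33 have a row in the table of open reading frames (ORFs), and 30 were kept after the 5% of ORFs with the lowest input signal were left out, of 6013 ORFs kept in all. The 30 are 22 initiation, 6 elongation and 2 release factor genes. EFT1, TIF1 and TIF2 were left out for low input and are described on their own, and TEF1, TEF2, EFT2 and HYP2 have no row in the table used here and were not analysed.

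The data are ChIP-seq signals of RNA polymerase II (RNA Pol II, through its subunit Rpb3) and of Hog1, the MAP kinase of the high osmolarity response, over ORFs of log-phase Saccharomyces cerevisiae of the W303 background. Cultures were split, and one portion was brought to 0.4 M KCl for 5 min (osmotic shock, KCl) while the other received plain medium (mock-treated, YEPD). Rpb3, which was untagged, was measured in a strain lacking HOG1 (Δhog1), in a strain lacking the transcription factors Sko1 and Hot1 (Δsko1Δhot1) and in wild type, each in KCl and in YEPD. Hog1 carried an HA tag and was measured in Δsko1Δhot1 and wild type, and a mock immunoprecipitation (mock IP) and input chromatin were taken from wild type only, each in KCl and in YEPD. Each condition is 1 library, so no difference below has a replicate error or a p-value. The signal is the authors' coverage per kilobase of ORF, scaled to the reads of each library, so genes can be compared with each other, and a change is relative to the rest of the library.

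Initiation factors bring the small ribosomal subunit, the initiator tRNA and the capped mRNA together and find the start codon. Elongation factors then deliver aminoacyl-tRNAs and move the ribosome along, and release factors free the finished protein at the stop codon. Some genes of this machinery are among the most heavily transcribed in growing yeast. The authors state that mRNA levels often do not fall where RNA Pol II is depleted from strongly expressed genes. The signal described here is that of RNA Pol II, and mRNA was not measured.

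A change upon shock is given as log2((KCl + 989)/(YEPD + 989)), where 989 is 10% of the median input signal, and a gene was counted as lower or higher when it changed at least 2-fold. The deletions were visible in the Rpb3 libraries: HOG1 itself had 1240 in KCl and 667 in YEPD in Δhog1 and 20500 in KCl and 18700 in YEPD in wild type, and HOT1 had 1060 in KCl and 569 in YEPD in Δsko1Δhot1 and 7820 in KCl and 6350 in YEPD in wild type. SKO1 has no row under that name, so this deletion was not checked. In the Δhog1 and mock IP libraries the 317 ORFs left out for low input had a median signal 0.618 to 0.852 times that of the kept ORFs, against 0.248 to 0.295 times in the Rpb3 libraries of Δsko1Δhot1 and wild type and 0.375 and 0.443 times in the inputs. The part of this difference in the values of Δhog1 was not tested.

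Upon osmotic shock, RNA Pol II signal was lower at most translation factor genes in Δsko1Δhot1 and in wild type, while in Δhog1 their changes lay around 0. In Δhog1, 0 of the 30 genes were at least 2-fold lower and 0 were higher, where 0.0665% of all kept ORFs were lower and 1.03% higher. The 30 log2 folds in Δhog1 spanned -0.60 at ANB1 to 0.32 at CAM1, with 17 below 0 against 57.4% of all ORFs and a median of -0.02 against -0.05. In Δsko1Δhot1, 7 of the 30 were at least 2-fold lower and 0 higher, with 7.97% of all ORFs lower and 6.19% higher. There 27 of the 30 log2 folds lay below 0, against 61.9% of all ORFs, and the median was -0.72, against -0.13 over all ORFs. In wild type, 6 of the 30 were at least 2-fold lower and 0 higher, with 7.73% of all ORFs lower and 4.49% higher. Again 27 of the 30 lay below 0, against 45.7% of all ORFs, and the median was -0.75, against 0.04. The counts depend on the scale. With input subtracted and values below 0 set to 0, 1 gene was lower in Δhog1, 22 in Δsko1Δhot1 and 23 in wild type. Of all ORFs, 1.55% were then lower in Δhog1, 16.2% in Δsko1Δhot1 and 16.1% in wild type. An ORF below input in YEPD cannot be counted as lower on this scale. In Δsko1Δhot1 this held for 65.4% of all ORFs and 5 of the 30 genes. In wild type it held for 68.7% of all ORFs and 5 of the 30, so these counts and shares are not on equal terms. With a pseudocount of 0.5 times the median input 4 were lower in Δsko1Δhot1 and 3 in wild type, where 4.61% of all ORFs were lower in Δsko1Δhot1 and 4.57% in wild type.

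**Figure D1:**
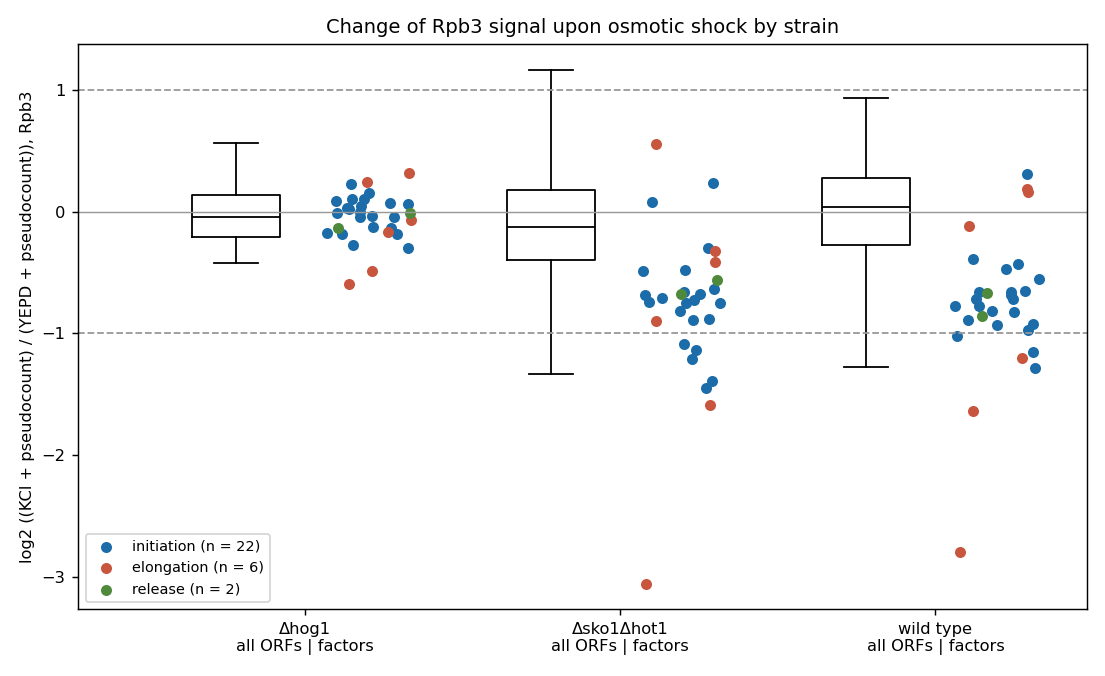
Log2 change of Rpb3 signal upon osmotic shock (KCl over YEPD, with the pseudocount) in each strain. Boxes show all 6013 kept ORFs (median, quartiles, whiskers at the 5th and 95th percentile), points are the 30 translation factor genes by step, and the dashed lines mark 2-fold; the points lie mostly below 0 in Δsko1Δhot1 and wild type and around 0 in Δhog1.

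The lower signal was seen in all 3 steps. Initiation genes had a median log2 fold of -0.0046 in Δhog1, -0.73 in Δsko1Δhot1 and -0.75 in wild type (n = 22). Elongation genes had -0.12 in Δhog1, -0.66 in Δsko1Δhot1 and -0.66 in wild type (n = 6), and the pair of release factor genes had -0.07 in Δhog1, -0.62 in Δsko1Δhot1 and -0.76 in wild type. With ANB1, which has a close copy, left out, the elongation median was -0.07 in Δhog1, -0.90 in Δsko1Δhot1 and -1.20 in wild type (n = 5). Elongation genes covered the widest range of the 3 steps, from -2.80 at YEF3 to 0.19 at HEF3 in wild type. In both Δsko1Δhot1 and wild type, 5 genes were at least 2-fold lower: YEF3, TEF4, TIF4631, PAB1 and TIF3. EFB1 was past 2-fold only in wild type, and RPG1 and NIP1 only in Δsko1Δhot1, with a log2 fold of -0.92 to -0.89 in the other strain.

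**Figure D2:**
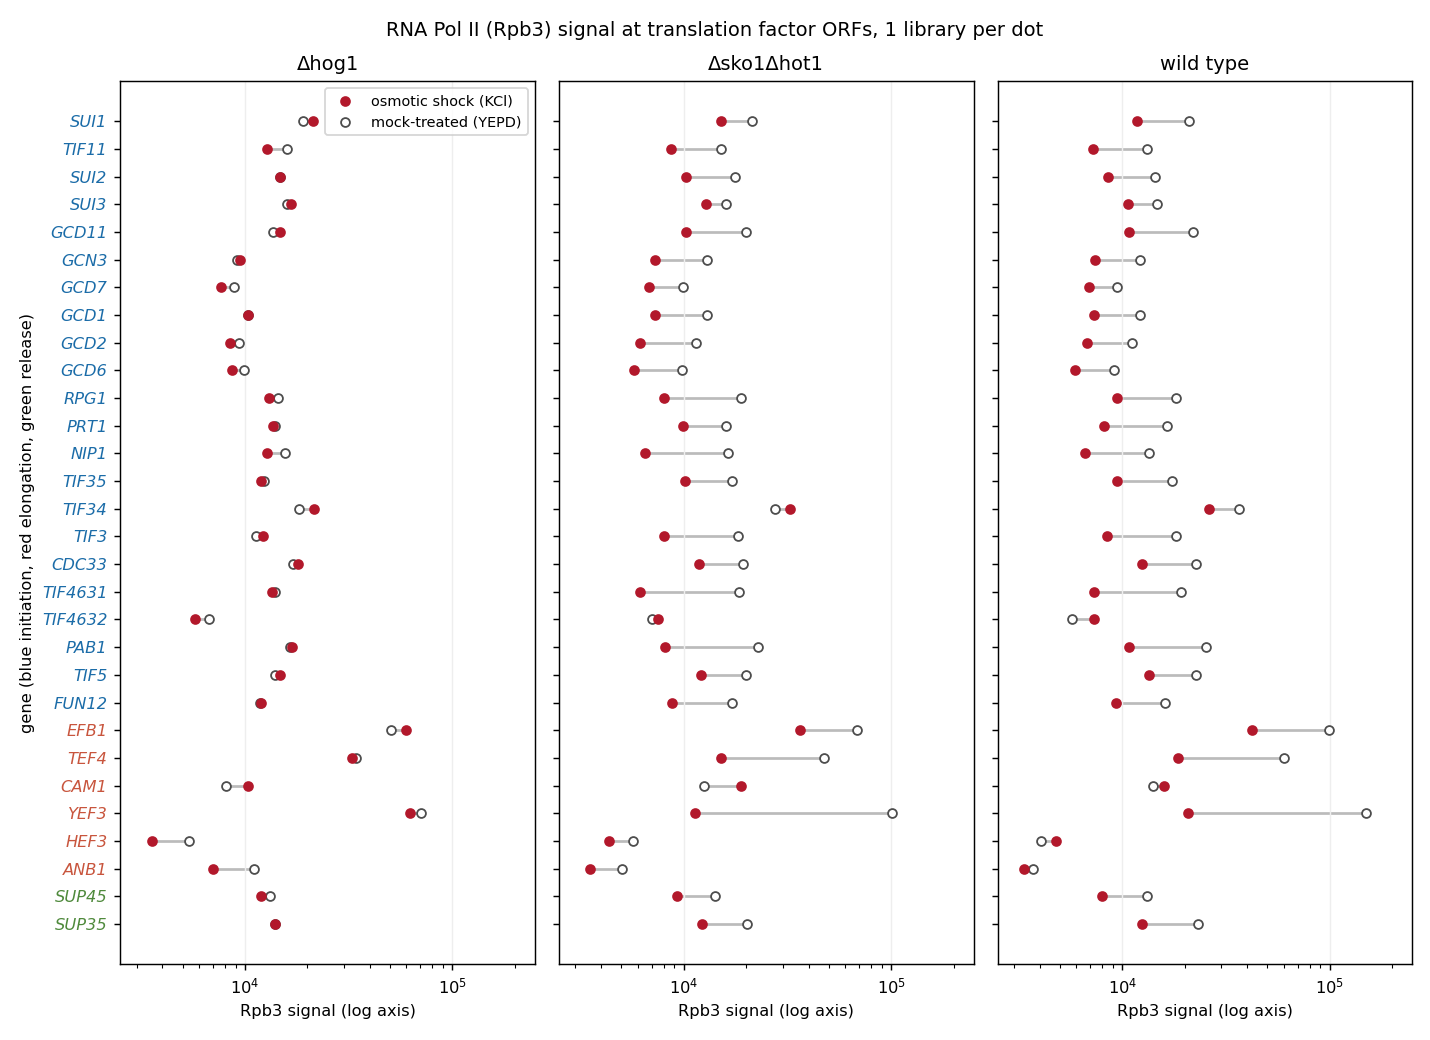
Rpb3 signal (log axis) at the 30 translation factor ORFs in Δhog1, Δsko1Δhot1 and wild type. Filled red points are KCl and open points YEPD, 1 library each; the filled points lie left of the open ones for 27 genes in Δsko1Δhot1 and for 27 in wild type, and the pairs nearly coincide in Δhog1 at most genes.

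The first group of initiation genes acts on the start codon and the initiator tRNA. SUI1, the gene of eIF1, which guards start codon selection, had an Rpb3 signal of 21200 in KCl against 19000 in YEPD in Δhog1, 15100 in KCl against 21400 in YEPD in Δsko1Δhot1, and 11800 in KCl against 20900 in YEPD in wild type. TIF11, encoding eIF1A, which works beside it, had 12800 in KCl against 16000 in YEPD in Δhog1, 8690 in KCl against 15200 in YEPD in Δsko1Δhot1, and 7230 in KCl against 13100 in YEPD in wild type. Their log2 folds in wild type were -0.78 for SUI1 and -0.78 for TIF11, so neither passed 2-fold, and in Δhog1 they lay on opposite sides of 0 at 0.15 for SUI1 and -0.30 for TIF11. Among the genes of eIF2, the GTPase that carries the initiator tRNA, GCD11 (gamma subunit) had 14800 in KCl against 13700 in YEPD in Δhog1, 10300 in KCl against 19900 in YEPD in Δsko1Δhot1, and 10700 in KCl against 21900 in YEPD in wild type. Its log2 fold of -0.97 in wild type was just short of the threshold. SUI2 (alpha subunit) had 14700 in KCl against 14800 in YEPD in Δhog1, 10300 in KCl against 17700 in YEPD in Δsko1Δhot1, and 8510 in KCl against 14300 in YEPD in wild type. Its log2 folds were -0.01 in Δhog1, -0.73 in Δsko1Δhot1 and -0.69 in wild type. SUI3 (beta subunit) had 16700 in KCl against 16000 in YEPD in Δhog1, 12800 in KCl against 16000 in YEPD in Δsko1Δhot1, and 10600 in KCl against 14600 in YEPD in wild type. Its log2 folds were 0.06 in Δhog1, -0.30 in Δsko1Δhot1 and -0.43 in wild type, the smallest change of the trimer in Δsko1Δhot1 and in wild type.

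The 5 genes of eIF2B, the exchange factor that reloads eIF2 with GTP, lay within a narrow band. In wild type their signals lay between 5880 (GCD6) and 7350 (GCN3) in KCl and between 9120 (GCD6) and 12200 (GCN3) in YEPD. The highest of the 5 was 1.25 times the lowest in KCl and 1.34 times in YEPD. Their log2 folds in wild type were -0.66 for GCN3 (alpha), -0.39 for GCD7 (beta), -0.66 for GCD1 (gamma), -0.65 for GCD2 (delta) and -0.56 for GCD6 (epsilon). In Δsko1Δhot1 the 5 log2 folds spanned -0.81 (GCD2) to -0.49 (GCD7), with 5760 to 7270 in KCl and 9850 to 12900 in YEPD. In Δhog1 they spanned -0.18 (GCD7) to 0.05 (GCN3), with 7700 to 10300 in KCl and 8880 to 10300 in YEPD. None of the 5 was past 2-fold in any strain, and all 5 lay below 0 in Δsko1Δhot1 and in wild type.

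Of the 5 genes of eIF3, the scaffold on the small subunit that holds the other factors, 4 had log2 folds between -0.93 and -0.82 in wild type. RPG1 (a subunit) had 13100 in KCl against 14500 in YEPD in Δhog1, 8030 in KCl against 18800 in YEPD in Δsko1Δhot1, and 9360 in KCl against 18200 in YEPD in wild type. NIP1 (c subunit) had 12700 in KCl against 15600 in YEPD in Δhog1, 6510 in KCl against 16400 in YEPD in Δsko1Δhot1, and 6600 in KCl against 13400 in YEPD in wild type. RPG1 gave log2 folds of -0.14 in Δhog1, -1.13 in Δsko1Δhot1 and -0.89 in wild type. NIP1 gave -0.28 in Δhog1, -1.21 in Δsko1Δhot1 and -0.92 in wild type, so both genes were past the threshold only in Δsko1Δhot1. PRT1 (b subunit) had 13600 in KCl against 14000 in YEPD in Δhog1, 9940 in KCl against 16000 in YEPD in Δsko1Δhot1, and 8150 in KCl against 16400 in YEPD in wild type. TIF35 (g subunit) had 11900 in KCl against 12300 in YEPD in Δhog1, 10100 in KCl against 17100 in YEPD in Δsko1Δhot1, and 9460 in KCl against 17400 in YEPD in wild type. In wild type the log2 folds were -0.93 for PRT1 and -0.82 for TIF35.

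TIF34, the gene of the i subunit of eIF3, stood apart. Its signal was 21500 in KCl against 18200 in YEPD in Δhog1, 32400 in KCl against 27400 in YEPD in Δsko1Δhot1, and 26000 in KCl against 36500 in YEPD in wild type. The log2 folds were 0.23 in Δhog1, 0.23 in Δsko1Δhot1 and -0.47 in wild type, so the KCl library was the higher one in both deletion strains. It also carried the highest signal of the 5 eIF3 genes in all 6 Rpb3 libraries, 3.94 times that of the lowest, NIP1, in wild type in KCl and 2.72 times in YEPD.

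The factors that recruit mRNA held 3 of the 5 genes that were lower in both Δsko1Δhot1 and wild type. TIF4631, one of the pair of eIF4G scaffold genes, had 13500 in KCl against 14000 in YEPD in Δhog1, 6170 in KCl against 18500 in YEPD in Δsko1Δhot1, and 7310 in KCl against 19200 in YEPD in wild type. Its log2 folds were -0.05 in Δhog1, -1.44 in Δsko1Δhot1 and -1.28 in wild type. The signal in KCl was the lowest of its 6 values in Δsko1Δhot1 and the next lowest in wild type. PAB1, the poly(A) binding protein gene, had 16900 in KCl against 16500 in YEPD in Δhog1, 8080 in KCl against 22800 in YEPD in Δsko1Δhot1, and 10800 in KCl against 25200 in YEPD in wild type, with log2 folds of 0.03 in Δhog1, -1.39 in Δsko1Δhot1 and -1.15 in wild type. As at TIF4631, the KCl values of Δsko1Δhot1 and wild type lay below the other 4 libraries. TIF3, encoding eIF4B, which stimulates the helicase eIF4A, had 12200 in KCl against 11300 in YEPD in Δhog1, 8030 in KCl against 18200 in YEPD in Δsko1Δhot1, and 8450 in KCl against 18200 in YEPD in wild type. Its log2 folds were 0.10 in Δhog1, -1.09 in Δsko1Δhot1 and -1.02 in wild type, just past the threshold in wild type. CDC33, the gene of the cap-binding eIF4E, stayed short of it with 18100 in KCl against 17000 in YEPD in Δhog1, 11900 in KCl against 19400 in YEPD in Δsko1Δhot1, and 12400 in KCl against 22700 in YEPD in wild type and log2 folds of 0.09 in Δhog1, -0.66 in Δsko1Δhot1 and -0.82 in wild type.

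Late initiation was represented by TIF5 and FUN12. TIF5, encoding eIF5, which activates GTP hydrolysis by eIF2, had 14700 in KCl against 14000 in YEPD in Δhog1, 12100 in KCl against 19900 in YEPD in Δsko1Δhot1, and 13400 in KCl against 22700 in YEPD in wild type. FUN12, encoding eIF5B, the GTPase of subunit joining, had 12000 in KCl against 11800 in YEPD in Δhog1, 8810 in KCl against 17100 in YEPD in Δsko1Δhot1, and 9340 in KCl against 16000 in YEPD in wild type. Neither passed 2-fold, with -0.67 for TIF5 and -0.88 for FUN12 in Δsko1Δhot1, and -0.72 for TIF5 and -0.72 for FUN12 in wild type.

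YEF3, the gene of eEF3, the fungal ATPase that helps clear the exit site of the ribosome, carried the highest signal of the 30 genes before the shock in every strain. Its Rpb3 signal was 62400 in KCl against 70200 in YEPD in Δhog1, 11300 in KCl against 101000 in YEPD in Δsko1Δhot1, and 20600 in KCl against 149000 in YEPD in wild type. It ranked 58th of the 6013 ORFs in KCl and 25th in YEPD in Δhog1, and 487th in KCl and 28th in YEPD in wild type. The log2 folds were -0.17 in Δhog1, -3.05 in Δsko1Δhot1 and -2.80 in wild type, the lowest of the 30 in Δsko1Δhot1 and in wild type. EFB1, encoding the exchange subunit of eEF1B, which reloads eEF1A, had 60000 in KCl against 50700 in YEPD in Δhog1, 36400 in KCl against 68800 in YEPD in Δsko1Δhot1, and 42300 in KCl against 98700 in YEPD in wild type. Its log2 folds were 0.24 in Δhog1, -0.90 in Δsko1Δhot1 and -1.20 in wild type, and its KCl value was the higher one only in Δhog1. TEF4, encoding the gamma subunit of eEF1B, had 32700 in KCl against 34400 in YEPD in Δhog1, 15100 in KCl against 47300 in YEPD in Δsko1Δhot1, and 18600 in KCl against 60000 in YEPD in wild type, with log2 folds of -0.07 in Δhog1, -1.59 in Δsko1Δhot1 and -1.64 in wild type. Here too the KCl values of Δsko1Δhot1 and wild type lay below the other 4 libraries.

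The paralogues of YEF3, TEF4 and TIF4631 were not 2-fold lower in any strain. HEF3, the low-level paralogue of YEF3, had 3560 in KCl against 5400 in YEPD in Δhog1, 4340 in KCl against 5670 in YEPD in Δsko1Δhot1, and 4760 in KCl against 4060 in YEPD in wild type, with log2 folds of -0.49 in Δhog1, -0.32 in Δsko1Δhot1 and 0.19 in wild type. In Δhog1 YEF3 carried 17.5 times the signal of HEF3 in KCl and 13 times in YEPD, while in wild type it carried 4.33 times in KCl and 36.7 times in YEPD. CAM1, the other gamma subunit gene of eEF1B, had 10300 in KCl against 8060 in YEPD in Δhog1, 18800 in KCl against 12500 in YEPD in Δsko1Δhot1, and 15900 in KCl against 14100 in YEPD in wild type. Its log2 folds were 0.32 in Δhog1, 0.55 in Δsko1Δhot1 and 0.16 in wild type, the highest of the 30 in Δhog1 and in Δsko1Δhot1. TIF4632, the second eIF4G gene, had 5770 in KCl against 6680 in YEPD in Δhog1, 7480 in KCl against 7030 in YEPD in Δsko1Δhot1, and 7300 in KCl against 5720 in YEPD in wild type, with log2 folds of -0.18 in Δhog1, 0.08 in Δsko1Δhot1 and 0.31 in wild type. In wild type the signal at TIF4631 was 1.00 times that at TIF4632 in KCl, against 3.36 times in YEPD. In all 3 pairs the gene with the higher YEPD signal in wild type was past 2-fold lower in Δsko1Δhot1 and in wild type, and its paralogue was not. The YEPD signal that orders each pair is also part of the wild type fold. Over all ORFs too, more YEPD signal went with lower log2 folds in these 2 strains, as given below, so the pattern is not particular to paralogues.

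**Figure D3:**
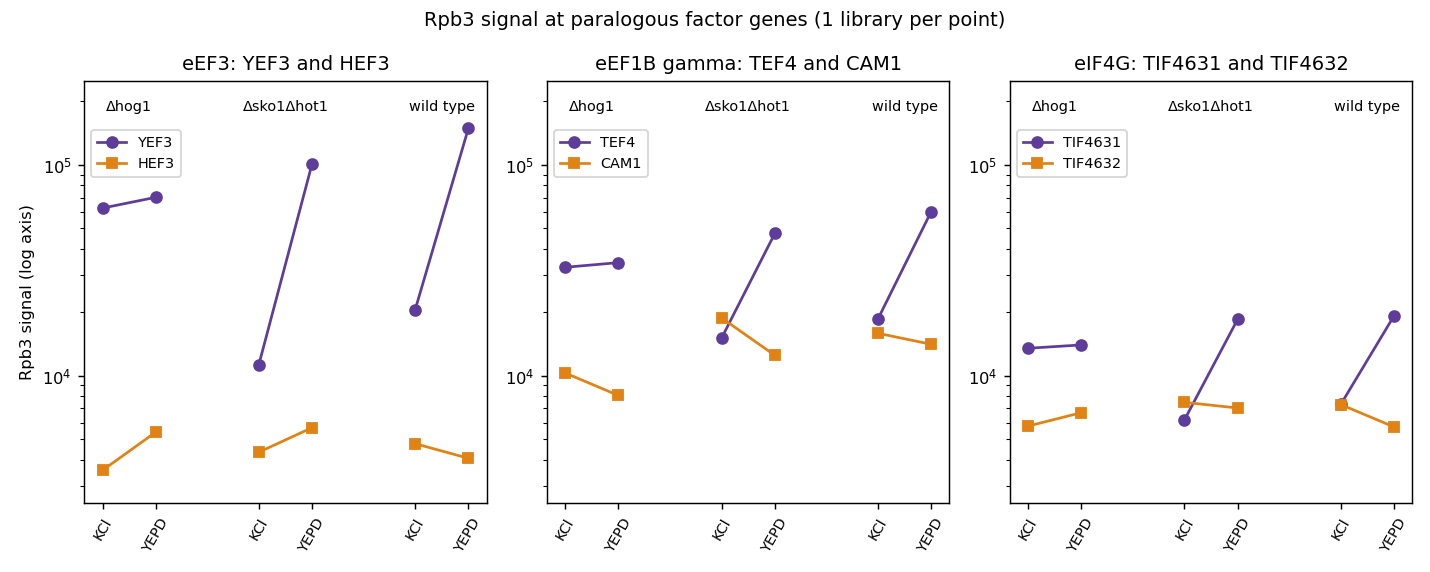
Rpb3 signal (log axis) at 3 paralogue pairs in KCl and YEPD for each strain, 1 library per point, joined within a strain. In wild type YEF3, TEF4 and TIF4631 were lower in KCl than in YEPD while HEF3, CAM1 and TIF4632 were slightly higher in KCl, and in Δhog1 the 6 log2 folds lay between -0.49 and 0.32.

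ANB1, the copy of the hypusine-containing factor eIF5A that is expressed under low oxygen, had the lowest signal of the 30 in KCl and in YEPD in wild type. It had 7000 in KCl against 11100 in YEPD in Δhog1, 3550 in KCl against 5060 in YEPD in Δsko1Δhot1, and 3340 in KCl against 3700 in YEPD in wild type. Its signal in YEPD was 1.37 higher on the log2 scale in Δhog1 than in wild type. ANB1 has a close copy, HYP2, and the part of shared sequence in its values was not tested. Its input was 0.871 times the median of the kept ORFs in KCl and 0.978 times in YEPD. Both release factor genes stayed short of 2-fold. SUP45, encoding eRF1, which reads the stop codon, had 11900 in KCl against 13200 in YEPD in Δhog1, 9230 in KCl against 14100 in YEPD in Δsko1Δhot1, and 7930 in KCl against 13200 in YEPD in wild type. SUP35, encoding the GTPase eRF3, had 13900 in KCl against 14000 in YEPD in Δhog1, 12200 in KCl against 20100 in YEPD in Δsko1Δhot1, and 12400 in KCl against 23200 in YEPD in wild type. The log2 folds were -0.14 in Δhog1, -0.56 in Δsko1Δhot1 and -0.67 in wild type for SUP45. For SUP35 they were -0.01 in Δhog1, -0.68 in Δsko1Δhot1 and -0.85 in wild type.

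In Δsko1Δhot1 and wild type, genes with more RNA Pol II before the shock had lower log2 folds. Over the 30 genes the Spearman correlation of the YEPD signal with the log2 fold was 0.28 in Δhog1, -0.48 in Δsko1Δhot1 and -0.75 in wild type. Over all 6013 ORFs it was 0.38 in Δhog1, -0.23 in Δsko1Δhot1 and -0.50 in wild type. The signal and the fold share the YEPD library, so these values describe the tables and are given without a p. TIF34 and CAM1 lay above the other genes of like YEPD signal in Δsko1Δhot1.

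**Figure D4:**
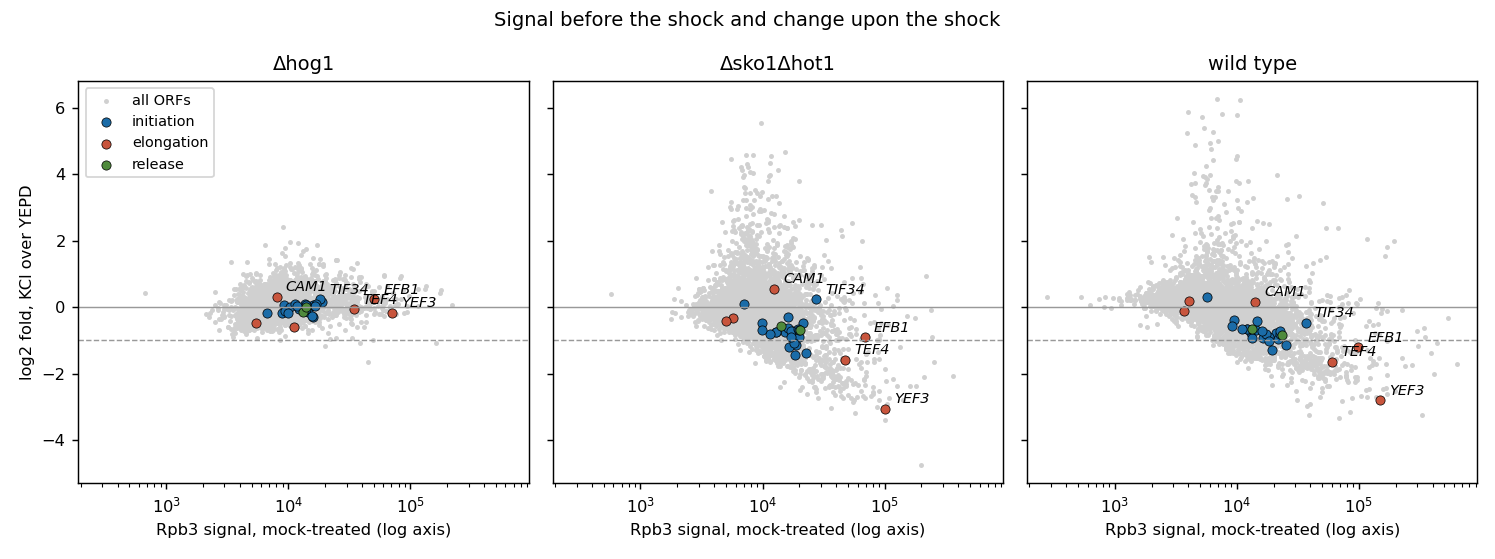
Rpb3 signal in YEPD (log axis) against the log2 fold upon osmotic shock in Δhog1, Δsko1Δhot1 and wild type. Grey points are all kept ORFs and coloured points the 30 translation factor genes by step; YEF3 lies at the lower right in Δsko1Δhot1 and wild type and near 0 in Δhog1.

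The share of the summed signal that lay at the 30 genes was also lower in KCl. They held 0.812% of the Rpb3 signal of all kept ORFs in KCl against 0.883% in YEPD in Δhog1, 0.463% in KCl against 0.934% in YEPD in Δsko1Δhot1, and 0.454% in KCl against 1.00% in YEPD in wild type. YEF3, EFB1 and TEF4 together, chosen after their values were seen, made up 31.5% of the signal of the 30 in KCl against 31.1% in YEPD in Δhog1. They made up 19.0% in KCl against 33.9% in YEPD in Δsko1Δhot1, and 24.2% in KCl against 41.8% in YEPD in wild type. The lower share in KCl did not hold in wild type with input subtracted: the 3 genes then made up 60.7% in KCl against 60.9% in YEPD in Δhog1, 42.7% in KCl against 53.4% in YEPD in Δsko1Δhot1, and 64.1% in KCl against 61.8% in YEPD in wild type. Genes below input count as 0 in these shares, which in wild type in KCl was 21 of the 30. Measured against input of the same treatment, 7 of the 30 genes lay below the input in KCl and 6 in YEPD in Δhog1, 18 in KCl and 5 in YEPD in Δsko1Δhot1, and 21 in KCl and 5 in YEPD in wild type. Over all ORFs the share below input was 77.2% in KCl and 80.4% in YEPD in Δhog1, 71.1% in KCl and 65.4% in YEPD in Δsko1Δhot1, and 73% in KCl and 68.7% in YEPD in wild type. Both IP and input are scaled within a library, so this ratio orders genes within a library and is no measure of absolute occupancy.

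Set against wild type, the log2 fold was higher in Δhog1 at 27 of the 30 genes, where 44.2% of all ORFs were higher. It was lower by at least 1 at 0 genes, where 4.64% of all ORFs were, and higher by at least 1 at 7, where 9.1% of all ORFs were: GCD11, TIF3, TIF4631, PAB1, EFB1, TEF4 and YEF3. The difference was 2.63 at YEF3 and 1.57 at TEF4. All 7 also had less YEPD signal in Δhog1 than in wild type, with log2 ratios from -1.08 at YEF3 to -0.43 at TIF4631. These lower YEPD levels are part of the difference. HEF3, TIF4632 and ANB1 were the 3 genes with a lower log2 fold in Δhog1 than in wild type. Between Δsko1Δhot1 and wild type no gene differed by 1 or more, where 1.3% of all ORFs were lower and 1.53% higher by that much. The largest of these differences in size was 0.71 at TIF34. These strain comparisons share the wild type libraries, and each rests on 4 single libraries, so the differences were not tested.

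The levels themselves differed before and after the shock. In YEPD, YEF3 was at 70200 in Δhog1 and 149000 in wild type, a log2 ratio of -1.08, and it was the only gene of the 30 at least 2-fold lower, where 5.06% of all ORFs were lower. TIF34 followed at -0.97, EFB1 at -0.95 and TEF4 at -0.79. The range of the libraries differed as well: the ORF at the 99th percentile had 6.49 times the median signal in YEPD in Δhog1 and 12.6 times in wild type, and the part of this in the ratios of these strong genes was not tested. ANB1 was the only one at least 2-fold higher, where 1.28% of all ORFs were. It has the close copy HYP2, and the part of shared sequence in this ratio was not tested. In KCl, YEF3 was the only gene at least 2-fold higher in Δhog1 than in wild type, at 62400 in Δhog1 and 20600 in wild type, with 5.22% of all ORFs higher, and 0 were lower, with 5.12% of all ORFs lower, while 26 of the 30 ratios lay above 0, against 48.9% of all ORFs. The median log2 ratio of the 30 in Δhog1 over wild type was 0.49 in KCl and -0.34 in YEPD. In Δsko1Δhot1 no gene was at least 2-fold from wild type in KCl (1.16% of all ORFs lower and 1.48% higher) or in YEPD (0.399% lower and 0.2% higher).

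No gene of the 30 gained Hog1 signal by 2-fold. In Δsko1Δhot1, 0 of the 30 were 2-fold higher or lower in Hog1 signal upon shock (1.21% of all ORFs higher and 0.316% lower), and in wild type likewise 0 of 30 (0.815% higher and 0.2% lower). A count of 0 of 30 is close to these shares. The median log2 fold was -0.17 in Δsko1Δhot1, with 22 of the 30 below 0 against 54.6% of all ORFs, and -0.14 in wild type, with 28 below 0 against 56% of all ORFs. YEF3 had the lowest log2 fold, with a Hog1 signal of 14700 in KCl against 27900 in YEPD in Δsko1Δhot1 and 18100 in KCl against 34300 in YEPD in wild type, or -0.88 in Δsko1Δhot1 and -0.89 in wild type. TEF4 had 15400 in KCl against 25500 in YEPD in wild type, a log2 fold of -0.69.

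In YEPD, YEF3 and EFB1 also had the highest signals of the 30 in the mock IP, taken from cells with no tagged protein. YEF3 had 9600 in KCl against 16700 in YEPD in the mock IP, a log2 fold of -0.74, and EFB1 had 10300 in KCl against 16400 in YEPD, or -0.62. Input at YEF3 was 13100 in KCl against 14600 in YEPD, or -0.15. No gene of the 30 changed 2-fold in the mock IP (0.499% of all ORFs lower and 2.1% higher) or in the input (0.0333% lower and 0.0166% higher). After subtraction of the mock IP and division by input, Hog1 enrichment in wild type had a median of 0.51 over the 30 in KCl, against 0.50 over all ORFs, and 0.67 in YEPD, against 0.56. On this scale 17 of the 30 genes were lower in KCl in Δsko1Δhot1 and 21 in wild type. The share of all ORFs lower on this scale was not counted. The median over all ORFs was lower in KCl as well, in Δsko1Δhot1 at 0.18 against 0.23 in YEPD. These counts are therefore not read as particular to the 30 genes. The highest enrichment in KCl in wild type was 1.01 at EFB1, and in YEPD 1.21 at YEF3. At EFB1 the wild type enrichment was thus higher in KCl than the 0.88 in YEPD, while its Hog1 log2 fold was -0.44. The part of the mock IP signal in the Hog1 folds was not tested beyond this subtraction.

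EFT1, TIF1 and TIF2 were left out because their input was low, and each has a near-identical copy (EFT2 for EFT1, and TIF1 and TIF2 for each other). The first encodes eEF2, the translocase, and TIF1 and TIF2 both encode the helicase eIF4A. Rpb3 signal at EFT1 was 32900 in KCl against 28100 in YEPD in Δhog1, 1530 in KCl against 2010 in YEPD in Δsko1Δhot1, and 2140 in KCl against 3030 in YEPD in wild type. Signal at TIF1 was 16700 in KCl against 19300 in YEPD in Δhog1, 877 in KCl against 2040 in YEPD in Δsko1Δhot1, and 1140 in KCl against 2640 in YEPD in wild type. Signal at TIF2 was 18200 in KCl against 20900 in YEPD in Δhog1, 2920 in KCl against 5910 in YEPD in Δsko1Δhot1, and 3300 in KCl against 7120 in YEPD in wild type. The Δhog1 signals of these genes were thus 2.31 to 4.56 times the median of the kept ORFs, while the wild type signals were 0.156 to 0.413 times it at EFT1 and TIF1 and, at TIF2, 0.450 times in KCl and 0.970 times in YEPD. The mock IP also held signal there, at 1.05 to 1.42 times its median, and the inputs held 0.0872 to 0.366 times theirs. Within each strain the log2 folds lay within the range of the kept genes, at -0.20 to 0.22 in Δhog1, -0.82 to -0.25 in Δsko1Δhot1 and -0.92 to -0.36 in wild type, where the pseudocount shrinks folds of such low signals. Levels of these 3 genes were not compared between strains, and the cause of the difference between libraries was not tested.

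**Figure D5:**
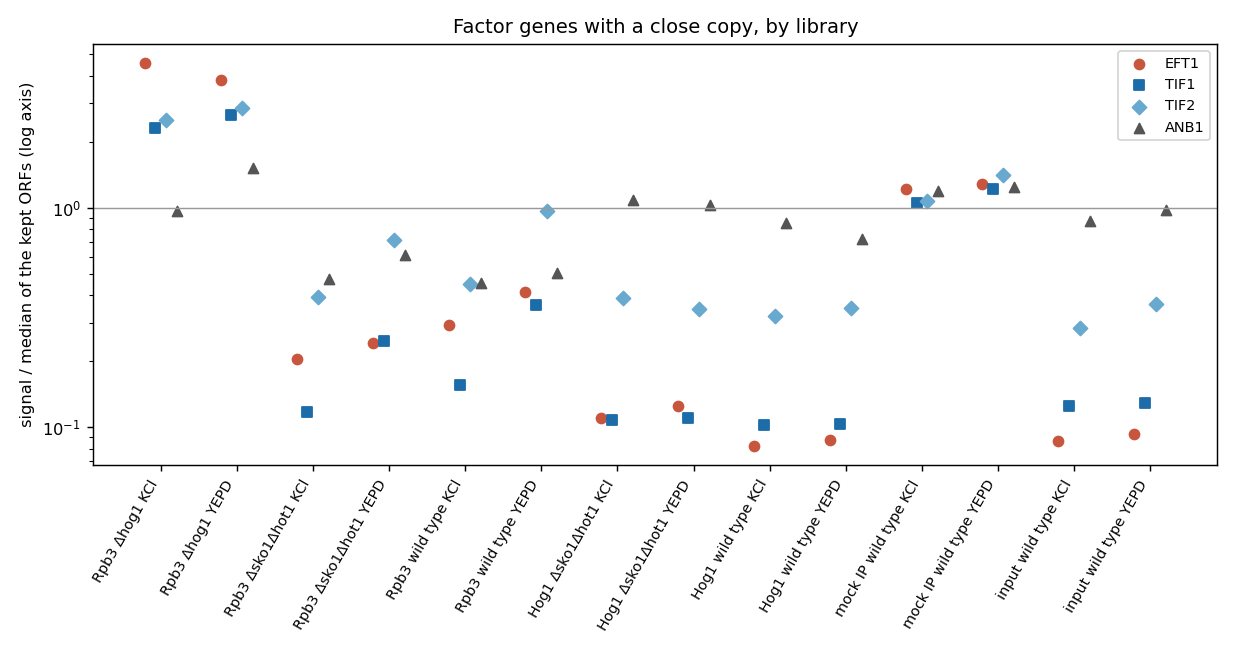
Signal at EFT1, TIF1, TIF2 and ANB1, divided by the median of the kept ORFs in the same library (log axis), for the 14 libraries of the ORF table. EFT1, TIF1 and TIF2 lie above 1 in the Δhog1 Rpb3 and the mock IP libraries and below 1 in the others.

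Genes that assist translation factors were taken from lists by function. Of 59 other genes of the pathway, 57 were kept, and of these 0 were at least 2-fold lower in Δhog1, 11 in Δsko1Δhot1 and 13 in wild type, with 0 higher in any strain, where 0.0665% of all ORFs were lower in Δhog1, 7.97% in Δsko1Δhot1 and 7.73% in wild type. Their median log2 fold was -0.10 in Δhog1, -0.47 in Δsko1Δhot1 and -0.43 in wild type. Elongation helpers and nascent chain factors had the lowest list median in wild type, -1.11, with 4 of 10 kept genes lower in Δsko1Δhot1, against 7.97% of all ORFs, and 6 of 10 in wild type, against 7.73%. STM1, a protein bound to idle ribosomes, had 29700 in KCl against 24200 in YEPD in Δhog1, 14900 in KCl against 44900 in YEPD in Δsko1Δhot1, and 21300 in KCl against 64400 in YEPD in wild type, a log2 fold of -1.55 in wild type. NEW1, an ATPase related to eEF3, had 6160 in KCl against 17200 in YEPD in wild type, a log2 fold of -1.35. RBG1, a ribosome-associated GTPase gene, had -1.42, EGD1, of the nascent polypeptide-associated complex, -1.21, and ZUO1 and SSZ1, of the ribosome-associated chaperone complex, -1.10 for ZUO1 and -1.11 for SSZ1 in wild type.

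Enzymes that modify elongation and release factors had 3 of 15 genes lower in Δsko1Δhot1, where 7.97% of all ORFs were, and 5 of 15 in wild type, where 7.73% were, with medians of -0.75 in Δsko1Δhot1 and -0.78 in wild type. LIA1, which completes hypusine on eIF5A, had the lowest log2 fold of the 57 kept genes, -1.83 in Δsko1Δhot1 and -1.90 in wild type, with 7740 in KCl against 31600 in YEPD in wild type. KTI11 and DPH2, both of diphthamide synthesis on eEF2, had -1.26 for KTI11 and -1.17 for DPH2 in wild type. TRM112, a partner of methyltransferases including that of eRF1, had -1.06, and EFM3, a methyltransferase of eEF2, -1.01. Among 17 other initiation genes, GCN4, whose mRNA is the translational target of eIF2 phosphorylation, had 48500 in KCl against 55800 in YEPD in Δhog1, 21900 in KCl against 71300 in YEPD in Δsko1Δhot1, and 34100 in KCl against 90200 in YEPD in wild type. Its log2 folds were -0.20 in Δhog1, -1.66 in Δsko1Δhot1 and -1.38 in wild type. GCD10 had -1.12 in wild type and was the only other one lower there, and GCD14, its partner in tRNA methylation, was lower only in Δsko1Δhot1 (-1.02). DED1, a helicase of start site scanning, had -0.95 in wild type and 0.51 in Δhog1. RLI1, the ribosome recycling ATPase, was lower only in Δsko1Δhot1, at -1.10, against -0.94 in wild type, and was the lowest of the 7 recycling genes. SSB1 and SSB2, the ribosome-bound Hsp70 genes, were left out for low input and are near-identical copies. Their log2 folds were 0.01 in Δhog1, -2.44 in Δsko1Δhot1 and -2.46 in wild type for SSB1. For SSB2 they were 0.05 in Δhog1, -1.64 in Δsko1Δhot1 and -1.99 in wild type. Relative to the kept ORFs, those of low input held more signal in the Δhog1 libraries than in the other Rpb3 libraries. The part of this in the folds of SSB1 and SSB2 was not tested.

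Factors of mitochondrial translation had small log2 folds. In wild type 0 of 8 were lower or higher by 2-fold, where 7.73% of all ORFs were lower and 4.49% higher, so a count of 0 is close to that share, and all 8 log2 folds were above 0, against 54% of all ORFs, with a median of 0.24. MEF2, a mitochondrial elongation factor, had the highest, 0.61, and TUF1, the mitochondrial EF-Tu, had 0.28. In Δsko1Δhot1 the median was -0.06, with 3 of 8 above 0 against 37.7% of all ORFs, and in Δhog1 it was -0.17, with 1 above 0 against 42.1% of all ORFs.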

How the data were processed

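Occupancy of Rpb3 and Hog1 was read from the deposited table of ORFs, 14 of the 18 libraries of the series. The authors extended uniquely aligned tags by the fragment length and scaled them to ORF length and library reads, leaving out parts of ORFs that overlap. The submitters' processing notes name Bowtie and sacCer2, whereas the supplement names ELAND. The deposited values, named RPKM by the authors, are too high for that unit and were used as a coverage signal, given to 3 significant digits. The table gives no total per library, and the supplement gives only a range of reads, for the Hog1 and transcription factor libraries, so no counting interval is given.

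Of 6334 entries, 4 that share a name were dropped. The 317 ORFs with the lowest summed input (at or below 13173.5) were left out, leaving 6013. Changes were log2 folds with a pseudocount of 989, and at least 2-fold counted as lower or higher. Each condition has 1 library, so nothing was tested. The calculation of the fold and the counting was checked on simulated data with known changes, which gives no measure of error between libraries. All 37 factor genes are named. Of the other genes, those past 2-fold in any strain are named, with up to 2 more per list. Factor genes and lists were chosen with earlier results of these data known.

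Tables of promoter and downstream signal were not used because their column heads are in doubt. The lists of Sko1 and Hot1 peaks name no gene, and no annotation of their build was used here. Alternatives were other pseudocounts, thresholds and centring, subtraction of or division by input, and no input filter. Python 3.11.15, pandas 2.3.3, numpy 2.4.6 and matplotlib 3.10.9 were used.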

Additional observations from a re-analysis of the deposited data

How the results depend on the processing

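No paired analysis was possible because each condition has 1 library and the labels carry no replicate numbers. Subtracting input changed the results most. It gave 1 gene lower in Δhog1, 22 lower and 1 higher in Δsko1Δhot1, and 23 lower in wild type. Of all ORFs, 1.55% were then lower in Δhog1, 16.2% lower and 13% higher in Δsko1Δhot1, and 16.1% lower in wild type. The medians of the 30 genes were -2.22 in Δsko1Δhot1 and -1.98 in wild type. With input subtracted, the share of Rpb3 signal at the 30 genes was 1.25% in KCl and 1.76% in YEPD in Δhog1. It was 0.277% in KCl and 1.63% in YEPD in Δsko1Δhot1, and 0.254% in KCl and 1.46% in YEPD in wild type. Of these shares, only that of wild type in YEPD stayed within 1.5 times the value without subtraction. By construction, subtraction takes signals near the input level to around 0. Signals below input were set to 0, so an ORF below input in YEPD could not be counted as lower. A pseudocount of 0.5 times the median input, which shrinks folds, gave 4 lower in Δsko1Δhot1, against 4.61% of all ORFs. In wild type it gave 3 lower, against 4.57%. In YEPD it gave 0 genes higher in Δhog1 over wild type, where the share of all ORFs was not counted. A 1.5-fold threshold gave 1 gene lower in Δhog1, 21 in Δsko1Δhot1 and 22 in wild type, where 1.36% of all ORFs were lower in Δhog1, 16.2% in Δsko1Δhot1 and 14.5% in wild type. A 3-fold threshold gave 2 in Δsko1Δhot1, against 3.34% of all ORFs, and 2 in wild type, against 2.83%. In all, 88 values that answer a comparison stayed within 1.5 times. They came from a smaller pseudocount, division by input, centring on all ORFs, no input filter and the remaining settings. Of the log2 folds of single genes, 44 moved by more than 1.5-fold, and none that had passed 2-fold changed sign. With 1 library per condition, differences near the threshold, such as TIF3 at -1.02 and GCD11 at -0.97 in wild type, cannot be separated from error between libraries.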

Other observations

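Genes next to the factor genes were looked at after the values were seen, with the order of genes taken from the R64 reference names and no coordinates used. Next to YEF3, RCK2 had a log2 fold of 0.05 in Δhog1, 0.57 in Δsko1Δhot1 and 0.61 in wild type. On its other side, SSP120 had 0.26 in Δhog1, 0.39 in Δsko1Δhot1 and 0.55 in wild type, so both neighbours lay above 0 in the strains where YEF3 was lowest. The largest changes of neighbours in Δsko1Δhot1 and wild type were at HSP42, next to SUP35, and at TPS3, next to TIF11. HSP42 had 0.62 in Δhog1, 3.90 in Δsko1Δhot1 and 3.51 in wild type, and TPS3 had -0.25 in Δhog1, 1.61 in Δsko1Δhot1 and 1.95 in wild type. PBI2, next to HEF3, had -0.10 in Δhog1, 1.52 in Δsko1Δhot1 and 0.97 in wild type. Next to TIF34, NDE1 had -0.25 in Δhog1, 0.39 in Δsko1Δhot1 and -0.86 in wild type, above 0 in Δsko1Δhot1 and below 0 in wild type as at TIF34. DIG1, next to CAM1, had 0.73 in Δhog1, 0.27 in Δsko1Δhot1 and -0.29 in wild type. These are values of single libraries, and reads that extend from one gene into the next were not separated.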
